A study of Homo sapiens with 6 samples.

Results

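The kallikreins are a family of secreted serine proteases whose genes lie side by side on the long arm of human chromosome 19. The members described here are KLK1, KLK2, KLK3, KLK4, KLK5, KLK6, KLK10, KLK11 and KLK15, 9 of the 27470 genes counted, selected by symbol. Their mRNA was read by QuantSeq 3ʹ mRNA sequencing in the 22Rv1-ABHD5 line, made from 22Rv1 human prostate cancer cells, a castration-resistant line, by infection with the lentiviral vector pInducer20-ABHD5 and selection with G418, so that both groups carry the vector. The control group of 3 libraries came from these cells without doxycycline (Dox), and the overexpression group of 3 libraries from the same cells with Dox, which switches on ABHD5, a coactivator of the triacylglycerol lipase ATGL. Both groups were grown for 48 h before RNA was taken. The comparison asks which transcripts differ when ABHD5 is induced. Parent 22Rv1 cells given Dox were not analysed here, and effects of the drug and of ABHD5 cannot be told apart. The Dox dose of these libraries, whether the cells are 1 clone, and whether the replicates are separate cultures are not given in the sources used here, and p-values then measure only the spread between these samples, which may be technical.

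Kallikreins are made as inactive zymogens, are secreted, and are activated by cleavage of a short propeptide, often by one another. In the luminal cells of the prostate, KLK3 encodes prostate-specific antigen, the serum marker of prostate cancer, and KLK2 encodes a trypsin-like protease able to activate it. Both genes are textbook examples of induction by androgen. Other family members are best known outside the prostate, such as KLK5 in the shedding of skin cells and KLK6 in the nervous system.

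Libraries held 3394672 to 7271771 counts on genes, and 3 counts in a library correspond to 0.394 to 0.930 CPM, the library's counts scaled to a common total by TMM normalization. Depth limits what follows, since the 9 members together drew only 103 to 655 reads per library. ABHD5 was at 63.5, 58.0 and 62.8 CPM without Dox and at 125.9, 130.8 and 91.7 CPM with Dox (log2 fold change 0.91, SE 0.15, adjusted p = 1.978e-04), as the labels say. Of 5 luminal prostate markers, all tested, KRT18 and TMPRSS2 fell and KRT8, HOXB13 and FOXA1 did not pass the test, with summed levels of 683 to 717 CPM without Dox and 498 to 631 CPM with Dox. The basal markers KRT5 and KRT14 and the T-cell marker CD3E had no read, while TP63 and the leukocyte marker PTPRC had 2 reads each. Leukocyte markers summed to 0.784 to 1.86 CPM without Dox and to 0.657 to 1.11 CPM with Dox, and stromal markers to 3.41 to 4.71 and 6.96 to 11.2 CPM. Of the 4 stromal markers only the collagen gene COL1A1 was tested, at 3.66, 1.55 and 2.09 CPM without Dox and 5.22, 3.62 and 7.62 CPM with Dox, and it rose (log2 fold change 1.22, adjusted p = 0.0313). It lost its call in 6 of 13 alternatives, among them leaving out replicate 2 or 3 without Dox or replicate 1 or 3 with Dox. COL1A1 passed the filter on low counts only through its reads with Dox. Of the 3 neuroendocrine markers CHGA had no read, SYP rose (log2 fold change 0.79, adjusted p = 0.00147), ENO2 was at −0.15, and their sum was 110.8 to 146.1 CPM without and 115.5 to 146.5 CPM with Dox. The part of these differences in the kallikrein results was not tested. In bulk samples fewer cells that express a gene and less RNA per cell cannot be told apart.

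Of the 9 members, 4 had enough reads to be tested with edgeR's quasi-likelihood test, 3 of these fell with Dox (KLK4, KLK1 and KLK2) and none rose. Among all 12233 genes tested, 25.5% passed an adjusted p of 0.05, 13.7% being lower and 11.9% higher with Dox. The log2 fold changes of KLK4, KLK1 and KLK2 ranked 30, 74 and 93 from the lowest of all genes tested, whereas KLK3 ranked 2942. The median over the 4 tested members was −1.78, against 0.016 over all genes tested. The other 5 members did not reach the filter on low counts and are given by their reads. KLK4, KLK1 and KLK2 kept their calls in every alternative in which they were tested, DESeq2 included, in which 20.1% of genes passed and 11.4% were lower. With only 4 reads in replicate 2 with Dox, KLK2 passed the filter on low counts only with its reads without Dox, where it is higher. It was not tested when at least 10 counts were asked of every library.

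**Figure D1:**
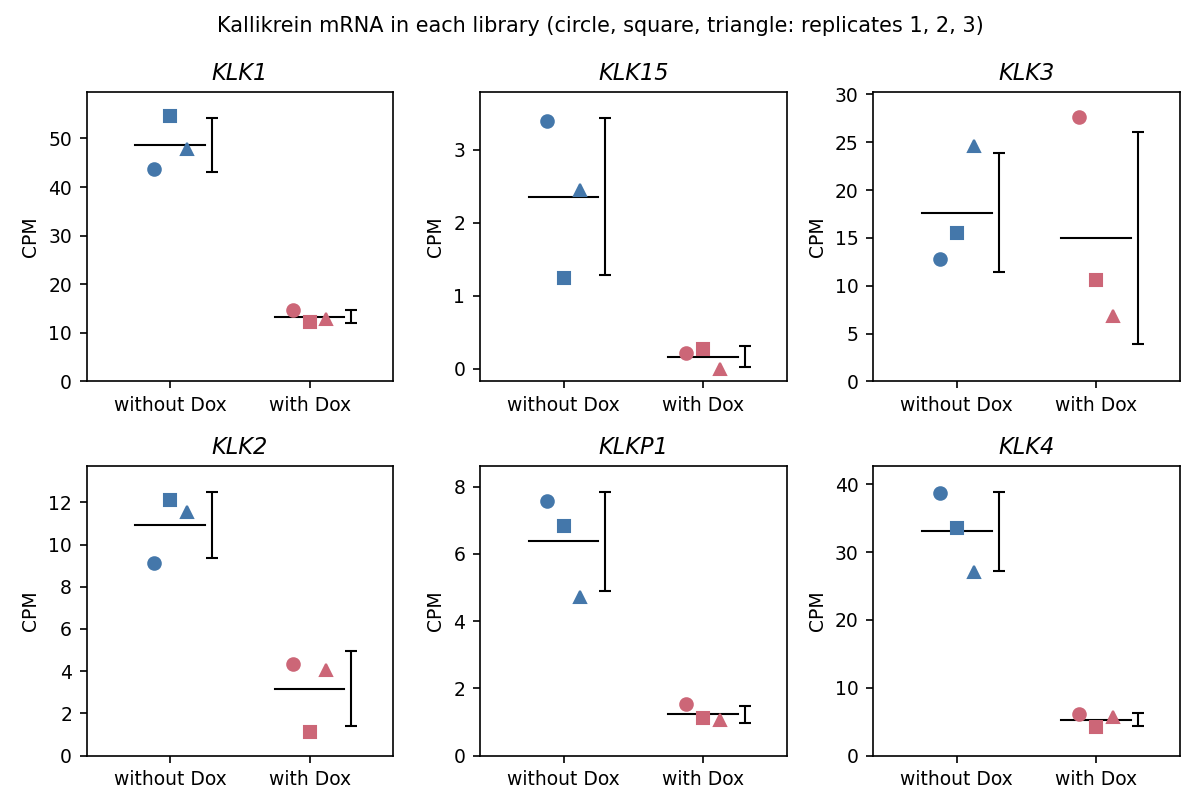
Level in CPM of the 4 tested members, KLK15 and the pseudogene KLKP1 in the 3 libraries without Dox and the 3 with Dox, with a symbol for each library, a line for the mean and a bar for the SD. KLK1, KLK2, KLK4, KLK15 and KLKP1 were lower in every library with Dox than in every library without it, as were 20.5% of all genes tested. KLK15 had too few reads for the test. The highest KLK3 value, 27.6 CPM, was in a library with Dox.

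At the centromeric end of the cluster, KLK1 (ENSG00000167748, hg38 chr19:50819146-50823787, minus strand) encodes tissue kallikrein, which releases the vasoactive peptide kallidin from kininogen. It drew 167, 176 and 274 reads in the libraries without Dox and 68, 44 and 98 reads in those with Dox, that is 43.6, 54.6 and 47.8 against 14.8, 12.2 and 12.9 CPM. Every library with Dox was below every library without it, as was so for 20.5% of all genes tested. The mean fell from 48.7 ± 5.53 CPM (SD, n = 3) to 13.3 ± 1.32 CPM (SD, n = 3), a log2 fold change of −1.87 (SE 0.17, adjusted p = 4.03e-07) or 3.64-fold lower.

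Next to it lies KLK15 (ENSG00000174562, chr19:50825289-50837213, minus strand), a trypsin-like kallikrein of the prostate also called prostinogen. It had 13, 4 and 14 reads without Dox and 1, 1 and 0 reads with Dox, so the groups did not overlap, but these counts were too low for the test. The pooled level with Dox was 0.0522 of that without, with an exact 95% interval of 0.00605 to 0.205 that covers counting error only. Without a filter on low counts the edgeR fit gave a log2 fold change of −3.97 (adjusted p = 1.908e-04), a size that depends on the small count added to avoid 0. A noncoding gene on the opposite strand overlaps KLK15, and because the use of strand in counting is not stated, its reads cannot be told apart from those of KLK15.

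The neighbours KLK3 and KLK2 lie on the plus strand and are close copies of each other. Their promoters are shown because KLK2 passed the test and KLK3 did not, a difference that was not itself tested, and that of KLK4, which had the lowest log2 fold change of the 4, is set beside them. Each is 300 bases of RefSeq sequence (GRCh38.p14), 5′ to 3′ on the strand of the gene, from 250 bases before to 50 bases after a start annotated by RefSeq. For KLK2 this start lies inside the longer GENCODE gene span given with its counts. RefSeq promoters were found for 8 of the 9 members, and none for KLK1. Capitals mark matches to NGAACANNNNGTNCT, a loose form of the 15-base steroid response element written after these promoters had been read. The windows are chr19:50854665-50854964 (plus strand) for KLK3, chr19:50873189-50873488 (plus strand) for KLK2 and chr19:50911346-50911645 (minus strand) for KLK4.
KLK3: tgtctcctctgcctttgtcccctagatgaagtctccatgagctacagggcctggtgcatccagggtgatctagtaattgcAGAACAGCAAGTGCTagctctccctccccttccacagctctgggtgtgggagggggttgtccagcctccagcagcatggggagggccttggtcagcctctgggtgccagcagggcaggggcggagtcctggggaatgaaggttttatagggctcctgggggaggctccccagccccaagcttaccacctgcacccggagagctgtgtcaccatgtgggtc
KLK2: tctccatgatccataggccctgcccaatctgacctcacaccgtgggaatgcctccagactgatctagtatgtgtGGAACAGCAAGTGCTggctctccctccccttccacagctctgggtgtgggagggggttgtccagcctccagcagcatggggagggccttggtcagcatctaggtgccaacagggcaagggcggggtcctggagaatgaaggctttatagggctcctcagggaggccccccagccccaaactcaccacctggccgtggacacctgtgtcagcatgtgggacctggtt
KLK4: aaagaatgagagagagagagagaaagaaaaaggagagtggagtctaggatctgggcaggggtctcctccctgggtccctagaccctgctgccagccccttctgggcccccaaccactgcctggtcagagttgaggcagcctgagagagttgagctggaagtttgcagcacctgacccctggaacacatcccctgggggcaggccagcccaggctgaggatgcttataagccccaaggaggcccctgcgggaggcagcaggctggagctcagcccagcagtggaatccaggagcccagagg

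The capitals in KLK3 lie 170 to 156 bases before the start and those in KLK2 176 to 162 bases before it. The elements differ by A1G, counted from the 5′ end of the element with the KLK3 base first. On either strand, this pattern occurs in 86 of 35116 RefSeq promoters of the same length (0.245%) and in 2 of the 12 promoters of the members. It leaves open each base at which the KLK3 and KLK2 elements depart from the full one given next. Both matches were thus fixed in advance, and the percentage is no measure of enrichment. The full palindrome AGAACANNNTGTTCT occurs in 1 of all promoters (0.00285%) and in none of the members'. Its left arm AGAACA occurs in 14.8% of all promoters and, among the members, in KLK3, while GGAACA occurs in 14.0% and, among the members, in KLK2, KLK4 and KLK6. The longer pattern contains one or the other of these arms in KLK3 and KLK2. The KLK3 and KLK2 promoters were identical in 80.2% of aligned positions, against 49.6% for KLK3 and KLK4 and 49.7% for KLK2 and KLK4. These matches describe letters in the windows and say nothing of binding in these cells.

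KLK3 (ENSG00000142515, chr19:50854915-50860764) had 49, 50 and 141 reads without Dox and 127, 38 and 52 reads with Dox, that is 12.8, 15.5 and 24.6 against 27.6, 10.6 and 6.83 CPM. The highest and the lowest library were both in the Dox group, and the groups overlapped. Means were 17.6 ± 6.19 CPM (SD, n = 3) in the control and 15.01 ± 11.1 CPM (SD, n = 3) in the Dox group, coefficients of variation of 35.1% and 73.8%. The log2 fold change of −0.30 (SE 0.38) did not pass the test (adjusted p = 0.611). This value rests on single libraries, since without replicate 1 with Dox it was −1.10 (SE 0.32, adjusted p = 0.0245), in a fit that called 19% of genes tested and 9.94% as lower, and without replicate 3 of either group it was above 0, at 0.058 (adjusted p = 0.945) without the control library and 0.11 (adjusted p = 0.844) without the Dox library.

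KLK2 (ENSG00000167751, chr19:50861568-50880567) had 35, 39 and 66 reads without Dox and 20, 4 and 31 reads with Dox, that is 9.14, 12.1 and 11.5 against 4.35, 1.11 and 4.07 CPM. All 3 libraries with Dox lay below the lowest without it. From 10.9 ± 1.57 CPM (SD, n = 3) it fell to 3.18 ± 1.79 CPM (SD, n = 3), a log2 fold change of −1.69 (SE 0.34, adjusted p = 0.00145) or 3.22-fold lower. The count of KLK2 per count of KLK3 was 0.714, 0.780 and 0.468 without Dox and 0.157, 0.105 and 0.596 with Dox. Replicate 3 with Dox lay within the range of the controls, and the ratio was not tested because KLK2 had only 4 reads in replicate 2 with Dox. No run of 100 bases was shared between the annotated transcripts of different kallikrein genes, and the longest run shared by KLK2 and KLK3 was 60 bases, shorter than a read. Only exact runs were compared, and whether reads were assigned to the wrong gene was not tested.

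KLK4 (ENSG00000167749, chr19:50906351-50911395, minus strand) encodes a trypsin-like protease of the prostate that is also needed for hardening of tooth enamel. It had 148, 108 and 155 reads without Dox and 28, 15 and 43 reads with Dox, that is 38.7, 33.5 and 27.1 against 6.09, 4.17 and 5.65 CPM. The groups lay far apart, with the highest Dox library well below the lowest control. The level fell from 33.1 ± 5.81 CPM (SD, n = 3) to 5.30 ± 1.003 CPM (SD, n = 3), a log2 fold change of −2.60 (SE 0.23, adjusted p = 2.01e-07) or 6.07-fold lower. Genes that passed the test and were at least 2-fold lower, as KLK1, KLK2 and KLK4 were, made up 3.23% of all genes tested.

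The kallikrein pseudogene KLKP1 (chr19:50882096-50896398, minus strand), between KLK2 and KLK4, is not one of the 9. It had 29, 22 and 27 reads without Dox and 7, 4 and 8 reads with Dox, or 6.37 ± 1.48 against 1.23 ± 0.256 CPM (SD, n = 3 each). It fell 5.08-fold (log2 fold change −2.35, SE 0.40, adjusted p = 2.88e-04). With so few reads in the Dox group, KLKP1 passed the filter on low counts through its reads without Dox. It was not tested when at least 10 counts were asked of every library.

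The remaining 4 members, at the telomeric side, were near or at the limit of detection. KLK5 (chr19:50943303-50953093) had no read in any library, which over 28562792 reads allows up to 0.105 CPM. KLK6 (chr19:50958631-50969673) had 0, 2 and 0 reads without Dox and 2, 0 and 0 with Dox, and KLK10 (chr19:51012739-51020175) had 0, 1 and 0 against 0, 1 and 2 reads. None of these 3 genes exceeded 3 counts in a library, so no difference was detectable at this depth, and a noncoding gene on the opposite strand overlaps each. KLK6 is also overlapped by another gene on its own strand. KLK11 (chr19:51022216-51028039), a kallikrein made in prostate and brain, had 4, 3 and 5 reads without Dox and 0, 0 and 11 with Dox. All its reads in the Dox group came from replicate 3, and the pooled ratio of 0.741 had an exact 95% counting interval of 0.296 to 1.84. Of the other kallikrein genes, KLK9 and KLK14 had no read, KLK7 had 0, 0 and 0 reads without and 3, 1 and 1 with Dox, KLK8 had 1, 0 and 0 against 1, 1 and 3, KLK12 had 0, 1 and 2 against 0, 0 and 0, and KLK13 had 1, 0 and 0 against 0, 0 and 3.

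**Figure D2:**
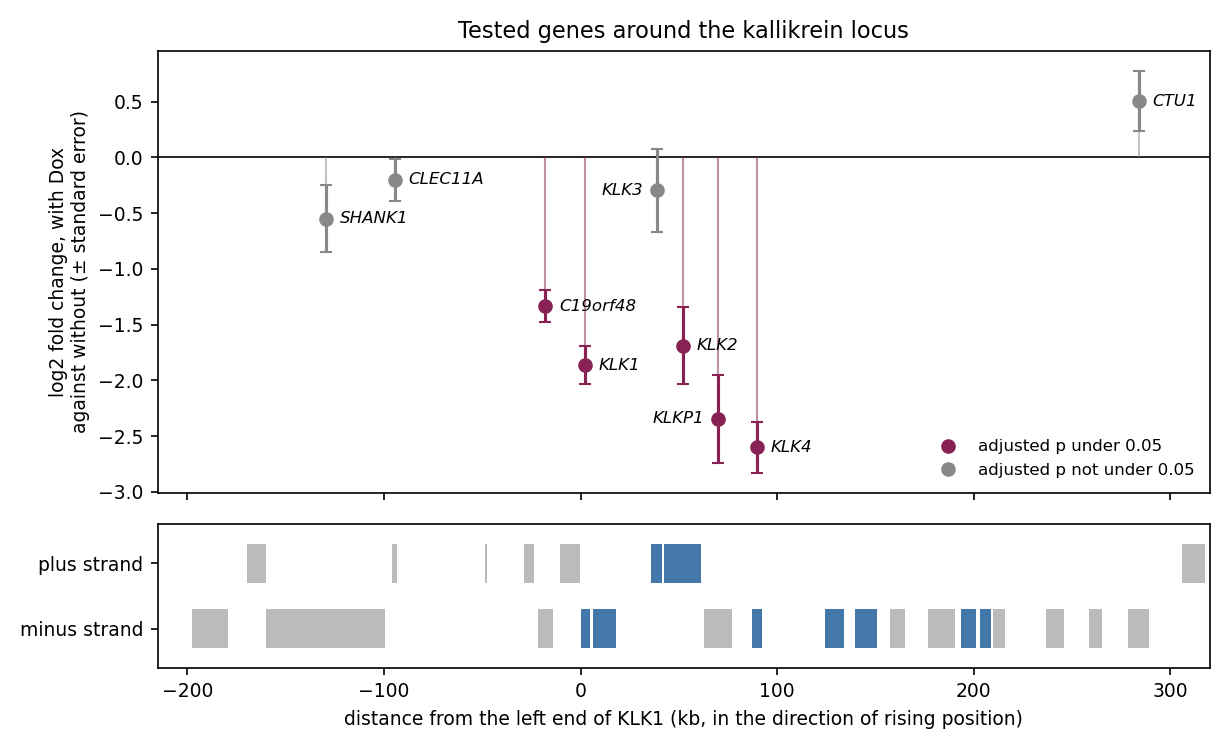
Upper panel, log2 fold change (with Dox against without) with its SE for each gene tested in the kallikrein region, by distance in kb from the left end of KLK1. Lower panel, genes of the region on their strand as far right as SIGLEC9, with the 9 members in blue. Untested genes of the region further right are not drawn. KLK1, KLK2, KLK4, KLKP1 and C19orf48 lie below 0 with adjusted p under 0.05, and KLK3 at −0.30 lies between KLK1 and KLK2.

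The members span 208.894 kb, and 26 other genes of the table lie within 300 kb of their outer ends. Of these, 5 were tested, 2 fell (KLKP1 and C19orf48), none rose, and 7 had no read. Among all genes tested, 13.7% were lower and 11.9% higher with Dox. C19orf48 (chr19:50797687-50804929, minus strand), a host gene of small nucleolar RNAs, lies 14.2 kb to the left of KLK1. Its levels were 66.9, 76.9 and 77.9 CPM without Dox and 30.9, 29.5 and 27.8 CPM with Dox, a log2 fold change of −1.33 (SE 0.14, adjusted p = 2.43e-06). The other tested genes, SHANK1 at −0.55 (adjusted p = 0.193), CLEC11A at −0.20 (adjusted p = 0.480) and CTU1 at 0.51 (adjusted p = 0.187), did not pass.

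Summed over the 9 members, the level was 108.7, 118.8 and 114.3 CPM without Dox and 53.5, 28.7 and 31.1 CPM with Dox, or 113.9 ± 5.07 against 37.8 ± 13.7 CPM (SD, n = 3 each). The share of each gene in the member reads shows how the mixture differed, and does not depend on library scaling. KLK3 made up 11.8%, 13.1% and 21.5% of member reads without Dox and 51.6%, 36.9% and 21.9% with Dox. Replicate 3 with Dox, at 21.9% (95% Wilson interval 17.1% to 27.6%), could not be set apart from replicate 3 without Dox at 21.5% (18.6% to 24.8%), while replicate 1 with Dox was at 51.6% (45.4% to 57.8%). These intervals, too, cover counting error only.

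The mean share of KLK3 was 15.5% ± 5.30 (SD, n = 3) in the control and 36.8% ± 14.8 (SD, n = 3) in the Dox group, and without replicate 1 with Dox the difference of 21.4 percentage points was 14.0. That of KLK4 was 29.1% ± 6.01 against 14.7% ± 3.38, that of KLK1 42.6% ± 2.99 against 37.2% ± 8.34, and that of KLK2 9.56% ± 0.992 against 8.36% ± 4.60 (SD, n = 3 each). For KLK3 and KLK4 the groups did not overlap and the exact permutation test (two-sided) gave p = 0.1, the smallest that 3 against 3 libraries allow. The exact permutation p was 0.5 for KLK1 and 0.7 for KLK2, and adjusted over these 4 genes the values were 0.2 for KLK3 and KLK4, 0.667 for KLK1 and 0.7 for KLK2. Shares within a library add up to the whole, so the 4 tests are not independent. A fall in the other members by itself raises the share of KLK3. These shares were examined after the counts had been seen.

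**Figure D3:**
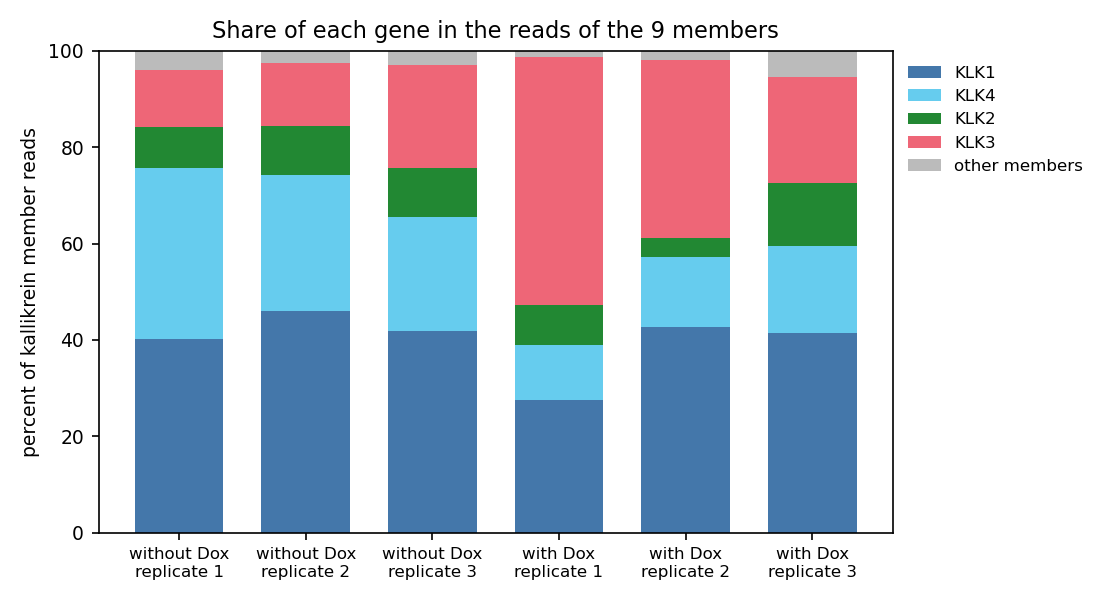
Share of each member in the reads of all members, in percent of member reads, for each of the 6 libraries as stacked bars starting at 0. KLK3 takes 11.8% to 21.5% of the bars without Dox and 21.9% to 51.6% of those with Dox, and KLK4 takes 23.7% to 35.6% and 11.4% to 18.1%.

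Of 19 androgen-induced genes outside the cluster, 17 were tested, 13 fell and 1 rose. Among all genes tested, 13.7% were lower and 11.9% higher with Dox. The median log2 fold change of the list was −1.06, against 0.016 over all genes. This list and those below were compiled by hand with earlier results of these data known. The smallest adjusted p among the falls belonged to the metalloreductase gene STEAP4 (−4.01, adjusted p = 3.32e-09), the cochaperone gene FKBP5 (−1.48, adjusted p = 2.84e-07) and HOMER2, which encodes a postsynaptic scaffold protein (−1.87, adjusted p = 1.859e-06). The rise was HERC3, a ubiquitin ligase gene (0.63, adjusted p = 0.0228), which lost its call without replicate 1 or 3 of the control group, without replicate 1 with Dox, and with DESeq2. Without replicate 1 with Dox, the library in which KLK3 was highest, 13 of these genes fell and none rose. That fit called 9.94% of all genes tested as lower.

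The kallikrein inhibitors, substrates and receptors were mostly little expressed. Of 16 inhibitor genes 12 had a read and 5 were tested, of which 2 fell and none rose, with a median of 0.10. Over all genes tested, 13.7% were lower and 11.9% higher with Dox. The inhibitors that fell were the secreted trypsin inhibitor SPINK1 (−0.91, adjusted p = 9.995e-05) and SERPINB6 (−0.53, adjusted p = 0.0147). SERPINB6 lost its call without replicate 1 or 2 of the control group, without replicate 1 with Dox, and with library totals alone. SPINT1 was at 0.56 (adjusted p = 0.0526) and SPINK5, the inhibitor of the skin kallikreins, at 0.52 (adjusted p = 0.0641). Both rose with upper-quartile scaling, library totals alone or the replicate block, and 1 of them rose with DESeq2 size factors, no filter or the stricter filter (SPINT1), without replicate 1 with Dox (SPINK5) and without replicate 2 with Dox (SPINT1). SERPINA3 and SERPINA5, which bind prostate-specific antigen in blood and semen, had no read.

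Of 19 substrate and protease-activated receptor genes 14 had a read and 8 were tested, of which 3 fell and 2 rose, with a median of −0.30. The shares over all genes tested were 13.7% lower and 11.9% higher with Dox. The falls were IGFBP2 (−0.84, adjusted p = 1.379e-04) and IGFBP3 (−1.03, adjusted p = 0.00368), which bind insulin-like growth factors, and the receptor gene F2RL3 (−0.9997, adjusted p = 0.0117). The rises were PTHLH, a parathyroid hormone-like peptide (3.88, adjusted p = 5.56e-09), and the growth factor TGFB2 (1.39, adjusted p = 0.00440). Without Dox PTHLH had 10, 9 and 12 reads and TGFB2 had 12, 7 and 22. Both passed the filter on low counts only with their reads with Dox. Neither was tested when at least 10 counts were asked of every library. The semenogelin genes SEMG1 and SEMG2, whose proteins prostate-specific antigen cleaves in semen, had no read. Of 5 other secretory product genes present, 2 were tested, ACPP (prostatic acid phosphatase, −1.16, adjusted p = 0.0492) and AZGP1 (zinc-alpha-2-glycoprotein, −0.29, adjusted p = 0.192). ACPP lost its call in 11 of 13 alternatives, among them leaving out any one of the 6 libraries. It passed the filter on low counts only through its reads without Dox.

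Among 9417 genes with a mean of at least 50 counts, the genes whose log2 levels over the 6 libraries lay nearest to KLK3 were TSTD2, ZDHHC14 and RPS18, with root mean square differences of 0.341, 0.359 and 0.405 on the log2 scale after centring. Nearest to KLK2 were FRMD5, SMCO4 and DPP4, with 0.319, 0.360 and 0.381. These describe 6 libraries in 2 groups, and no test was made.

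**Figure D4:**
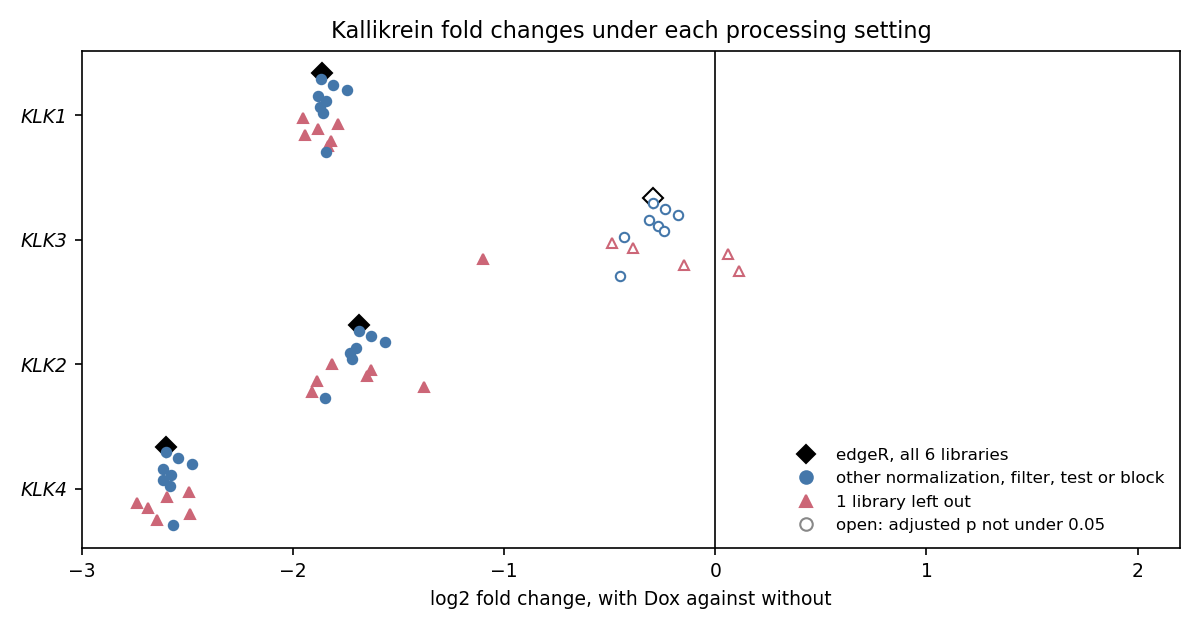
Log2 fold change of KLK1, KLK3, KLK2 and KLK4 (with Dox against without) in the analysis reported and in each alternative in which the gene was tested, on a log2 axis. KLK1, KLK2 and KLK4 stay below 0 throughout, whereas KLK3 runs from −1.10 without replicate 1 with Dox to 0.11 without replicate 3 with Dox.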

How the data were processed

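Total RNA of 6 libraries, 3 without and 3 with Dox, was read by QuantSeq 3ʹ mRNA-seq. Per the labels, reads were processed with CASAVA 1.8.2, FastQC, STAR (hg38), HTSeq and edgeR. The kit direction (FWD or REV) differs between labels and methods, and the annotation and use of strand are not given in the sources used here. The authors deposited raw counts per gene, used for every main result, and for each library a normalized signal whose scaling is not stated, used as an alternative without 27 rows whose names differed. Rows naming no gene stayed out, with 32.5% to 39.5% of reads on no gene and 3.05% to 3.37% ambiguous.

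Counts were tested with edgeR 4.0.16 in R 4.3.3 (quasi-likelihood test after filterByExpr and TMM, threshold 0.05 on p adjusted by Benjamini-Hochberg over 12233 genes). DESeq2 1.42.0, limma 3.58.1 on log2(signal + 1), other scalings and filters, a replicate block, and fits that left out 1 library served as alternatives. The edgeR test was checked on simulated data. Each SE of an edgeR log2 fold change was its absolute size divided by the square root of the test's F statistic. Replicates differed beyond sampling noise. Intervals are exact or Wilson, at 95%. Positions are those of GENCODE 44. Members and gene lists were chosen with earlier results of these data known, and the lists were compiled by hand. Named were all members, every other kallikrein of the locus, locus genes tested within 300 kb, per list up to 3 genes in each direction with the smallest adjusted p, and the 3 genes nearest to KLK3 and KLK2. Other genes named (KRT8, KRT18, FOXA1, HOXB13, TMPRSS2, ENO2, TP63, PTPRC, SPINT1, SPINK5, AZGP1, and those at 0) were picked with their values already seen. Some listed genes, and 1 list, are not reported here.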

Additional observations from a re-analysis of the deposited data

How the results depend on the processing

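KLK1, KLK2 and KLK4 kept their direction and their calls in 14, 13 and 14 alternatives, at −1.95 to −1.74, −1.91 to −1.38 and −2.74 to −2.48 on the log2 scale. KLK3 stayed uncalled in all 8 alternatives that kept every library (−0.45 to −0.18, adjusted p = 0.377 to 0.857). With one library left out it ranged from −1.10 (called, without replicate 1 with Dox) to 0.11 (reversed, without replicate 3 with Dox), and was also reversed without replicate 3 without Dox, at 0.058. The cause was not tested. Called members numbered 3 of 4 tested. They were 2 of 3 with at least 10 counts asked of every library, which drops KLK2 from the test. With no filter they were 4 of 8, which adds KLK15 to the calls. They numbered 3 to 4 with one library left out: KLK15 was tested and called without replicate 2 of either group, and KLK3 without replicate 1 with Dox. In the fits without replicate 2 of either group, KLK15 passed the filter only through its reads without Dox, where it is high. Its calls in these fits and with no filter are no separate support for a fall. DESeq2 gave no adjusted p for KLK15. Among all genes, calls numbered 3125 of 12233 tested, 2632 of 13117 with DESeq2 and 3537 of 12233 with the replicate block. They were 3403 of 19356 with no filter and 2797 of 11121 with at least 10 counts asked of every library. With 1 library left out they ran from 2181 of 12652 (without replicate 1 without Dox) to 3112 of 12596 (without replicate 2 with Dox). Without replicate 1 with Dox they were 2359 of 12398, and without replicate 2 without Dox 2460 of 12686. Scaling by library totals alone shifted the median over all genes from 0.016 to 0.14 (log2) and raised the part of all calls that was higher with Dox from 46.4% to 65.7%, against 55.6% under upper-quartile scaling.

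Libraries of the same replicate number gave correlations of deviations of −0.00958, 0.229 and 0.0856. Libraries of different numbers were not compared in this way, so whether replicate numbers pair the samples was not tested. With the replicate block, KLK1 was at −1.86, KLK2 at −1.72, KLK4 at −2.58 and KLK3 at −0.43 (adjusted p = 0.377), with no call of a member changed. The difference in KLK3 share was 14.0 to 28.8 percentage points with one library left out. KLK5, KLK6, KLK10 and KLK11 are limited by their low counts.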
